A study of Homo sapiens with 2 samples.

Results

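Semaphorins, plexins and neuropilins form a family of guidance ligands and receptors, and 33 of their genes were found among the 24462 gene symbols measured by RNA sequencing in H9 cells and in neural precursor cells (NPC) made from them. The members are all symbols of the SEMA3 to SEMA7 series (20 genes), the A to D plexins (9 genes), NRP1 and NRP2, and the plexin domain-containing genes PLXDC1 and PLXDC2. The rule reads the gene symbol alone. H9 is an established human embryonic stem cell (hESC) line. One group was undifferentiated H9 hESC and the other was H9-derived NPC that had been differentiated in co-culture with MS5 cells, a mouse stromal feeder line. There was 1 library per group, both from the same line, so differences are between 2 libraries and no test between conditions was possible.

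Semaphorins are secreted or membrane-bound ligands that steer growing axons, migrating cells and vessels. Plexins are their transmembrane receptors and act on small GTPases and the cytoskeleton. The secreted class 3 ligands mostly need a neuropilin as the binding partner of an A plexin, while the membrane-bound classes bind plexins directly. In the developing nervous system these genes are best known for axon repulsion and neuronal migration, and neuropilins also bind vascular endothelial growth factors (VEGF).

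The counts summed to 19686728 reads for hESC and 24065750 for NPC. Levels are given as CPM, read counts scaled to a common library size with trimmed-mean factors. Paired values give the hESC library first and the NPC library second. The pluripotency genes POU5F1 (1259 against 0.662 CPM) and NANOG (204 against 2.57 CPM) were high in the hESC library, and the neural genes PAX6 (1.04 against 83.4 CPM) and SOX1 (0.460 against 50.6 CPM) in the NPC library, as their labels say. NES, a neural stem cell filament gene, had 355 and 366 CPM. In such bulk samples fewer cells of a type and less RNA per cell cannot be told apart. Of 8 neuron markers 6 were higher in the NPC library by the rule given below, as were 19.6% of all measured genes. Their summed levels over the list were 375 and 1861 CPM. The other 2, TUBB3 (213 and 196 CPM) and SYT1 (75.0 and 91.7 CPM), were not called. Of 8 stroma markers 7 were measured, 5 were higher and 1 lower, with sums of 540 and 618 CPM. Single stroma genes differed far more than that sum: COL3A1 had 11 and 7837 reads, DCN 4 and 303 and PDGFRA 42 and 521, while THY1 fell from 267 to 23.5 CPM and COL1A1 had 250 and 183 CPM. The 8 endothelium markers summed to 20.4 and 8.12 CPM, most of it TIE1 (140 and 2 reads), the 1 called lower, and TEK (176 and 154 reads, not called). The defining genes PECAM1 and CDH5 had 4 and 13 hESC reads and 10 and 9 NPC reads, while ROBO4 had 0 and 6. Of 6 neural crest markers 4 were measured, TFAP2A (5 and 425 reads) and TFAP2B (0 and 603 reads) higher and NGFR and ERBB3 lower, while SOX10 (37 and 21 reads) and FOXD3 (86 and 0 reads) were below the filter, with sums over the list of 75.9 and 45.7 CPM. The 6 myeloid markers summed to 12.3 and 1.40 CPM. Most of the hESC sum was AIF1 (188 and 13 reads), the 1 marker measured, which was called lower. The others were below the filter, PTPRC with 8 and 13 reads, while ITGAM and TYROBP had 0 NPC reads and CD14 0 hESC reads. The part of these other cells in the results below was not tested. Whether reads from the mouse MS5 cells are among the NPC counts, of these markers or of the members, was not tested either.

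The receptor genes were mostly higher in the NPC library, while the semaphorin genes were called in each direction about as often as all genes were. A gene was called higher or lower when it had at least 5 CPM in either library and its whole 95% counting interval lay at or beyond 2-fold. Of the 33 members 31 passed the filter of 5 CPM, 11 were higher, 5 were lower and 15 were not called. Over all 13535 genes that passed it, 39.4% were called, 19.6% higher and 19.8% lower. The median log2 ratio, NPC over hESC, was 0.96 over the 31 measured members and -0.09 over all measured genes. Without the filter it was 0.96 over all 33 members and 0.11 over all genes with a read. Among the 20 semaphorins 4 were higher and 4 lower, which is 21.1% of the 19 measured each way, and their median was 0.09. The semaphorin median turned sign with the filter, to -0.14 over all 20 and -0.56 with a filter of 20 CPM. Among the 9 plexins 6 were higher and 1 lower, and the median was 1.71. Adding the neuropilins gave 7 higher and 1 lower of 11 receptor genes.

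**Figure D1:**
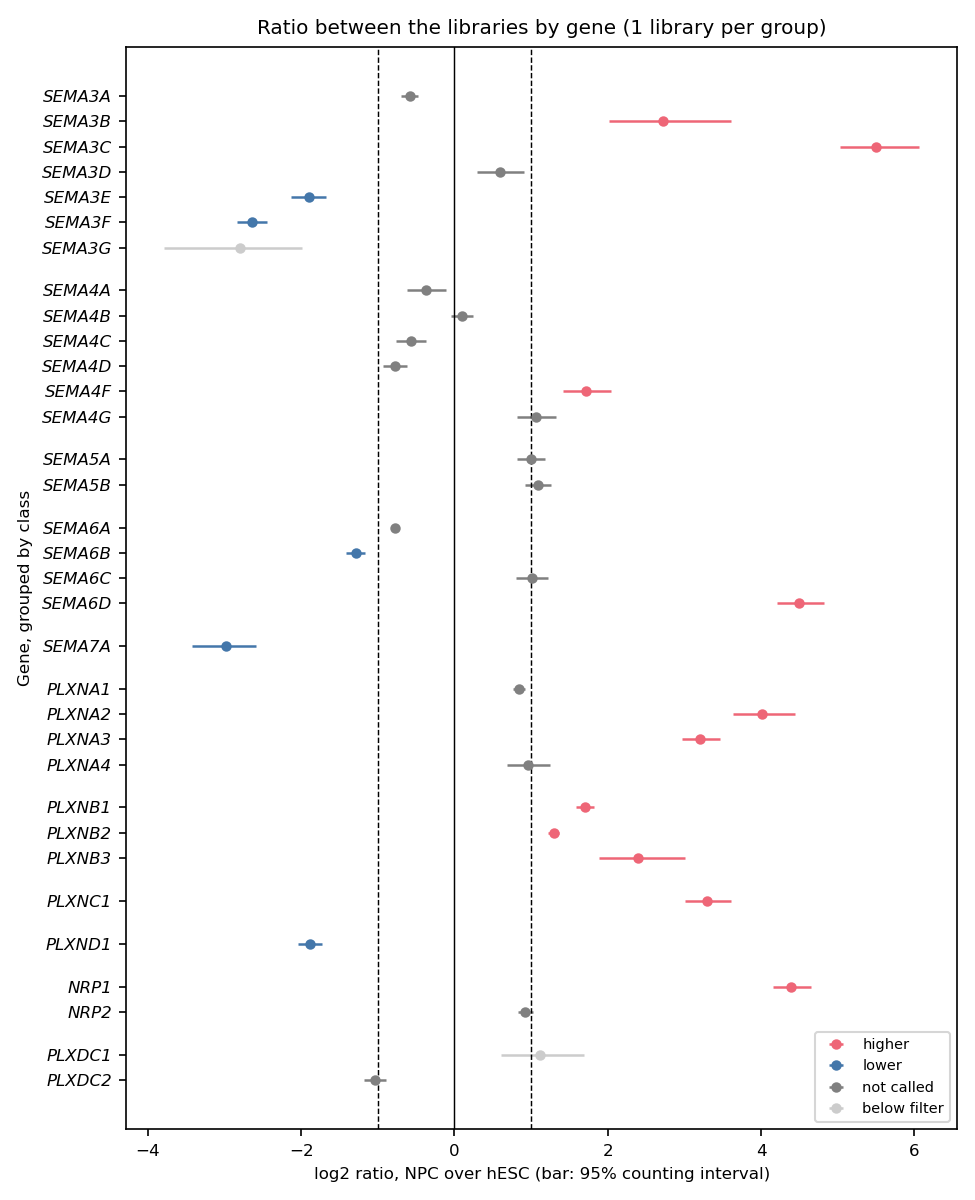
Log2 ratio of each member, NPC over hESC library, with its 95% counting interval, genes grouped by class on the vertical axis and dashed lines at 2-fold. SEMA3C (5.50), SEMA6D (4.50) and NRP1 (4.39) lie farthest to the right and SEMA7A (-2.99) farthest to the left.

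Intervals cover counting error only, and with 1 library per group there is no measure of variation between cultures. Of the called genes SEMA3B, SEMA3C, PLXNA2 and PLXNB3 passed the filter through their NPC level, so a lower call was not open to them, and SEMA7A passed it through its hESC level, so a higher call was not. The other 26 measured members reached it in both libraries, where 7 were higher and 4 lower. Of all 10804 genes that reached it in both libraries 12.8% were higher and 17.2% lower. Among the 26 members the higher ones were the receptor genes PLXNA3, PLXNB1, PLXNB2, PLXNC1 and NRP1 and the semaphorins SEMA4F and SEMA6D. The lower ones were the receptor gene PLXND1 and the semaphorins SEMA3E, SEMA3F and SEMA6B.

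The sequence just before the gene start varied in composition among the members that differed most. The windows below are the 200 bases before the RefSeq gene start in GRCh38.p14, 5′ to 3′ on the gene's strand, for the 3 higher and 3 lower members whose counting interval starts farthest from a ratio of 1, among the members with a window. Capitals mark GC boxes, the letters GGGCGG or, on the other strand, CCGCCC, with overlapping matches counted. SEMA3C, SEMA6D and PLXNA2 were higher in the NPC library and SEMA7A, SEMA3F and PLXND1 lower.
SEMA3C, chr7:80922390-80922589, minus strand: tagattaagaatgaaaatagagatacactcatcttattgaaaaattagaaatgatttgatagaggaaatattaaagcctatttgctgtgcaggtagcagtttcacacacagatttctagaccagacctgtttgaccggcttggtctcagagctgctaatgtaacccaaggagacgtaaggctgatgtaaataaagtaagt
SEMA6D, chr15:47183889-47184088, plus strand: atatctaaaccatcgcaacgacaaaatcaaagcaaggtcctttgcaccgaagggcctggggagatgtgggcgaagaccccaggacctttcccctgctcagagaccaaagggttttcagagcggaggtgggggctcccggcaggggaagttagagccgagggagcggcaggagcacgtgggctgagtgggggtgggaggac
PLXNA2, chr1:208244385-208244584, minus strand: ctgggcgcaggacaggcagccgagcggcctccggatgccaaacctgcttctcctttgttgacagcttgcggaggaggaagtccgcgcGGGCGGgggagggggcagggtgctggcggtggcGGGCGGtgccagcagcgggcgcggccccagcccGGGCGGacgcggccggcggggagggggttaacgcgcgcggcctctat
SEMA7A, chr15:74433959-74434158, minus strand: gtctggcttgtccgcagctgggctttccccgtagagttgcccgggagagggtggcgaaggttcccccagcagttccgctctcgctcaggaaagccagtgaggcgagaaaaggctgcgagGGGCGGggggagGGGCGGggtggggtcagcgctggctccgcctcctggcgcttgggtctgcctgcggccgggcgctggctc
SEMA3F, chr3:50154858-50155057, plus strand: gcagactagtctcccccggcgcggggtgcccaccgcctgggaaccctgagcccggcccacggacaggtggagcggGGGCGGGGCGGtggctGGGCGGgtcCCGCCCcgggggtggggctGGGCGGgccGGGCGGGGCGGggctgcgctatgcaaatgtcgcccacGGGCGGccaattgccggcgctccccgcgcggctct
PLXND1, chr3:129606677-129606876, minus strand: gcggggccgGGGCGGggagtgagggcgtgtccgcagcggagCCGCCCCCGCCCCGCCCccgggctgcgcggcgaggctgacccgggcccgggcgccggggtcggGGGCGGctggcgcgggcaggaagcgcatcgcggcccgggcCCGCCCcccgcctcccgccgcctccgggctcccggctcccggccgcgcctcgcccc

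The SEMA3C window held 2 CpG dinucleotides and no GC box at 36.5% G and C, and the SEMA6D window held 9 CpG and no GC box at 60.5%. The PLXNA2 window held 25 CpG and 3 GC boxes. SEMA7A had 16 CpG and 2 GC boxes, SEMA3F 25 CpG and 8 GC boxes, and PLXND1 35 CpG and 6 GC boxes. A window was found for 28 of the 33 members, all but SEMA3A, SEMA6A, SEMA6B, NRP1 and PLXDC1. Of these 18 (64.3%) held a GC box, against 40.1% of all 35116 RefSeq windows of the same length. None of the 28 held the letters TATAAA or their reverse complement, against 8.59% of all windows. The 35116 windows were not limited to genes in the counts or to 1 window per gene, as the member windows were, so the sets are unlike. The 10 windows of higher members had 2 to 29 CpG with a median of 10.5, and the 4 windows of lower members had 5 to 35 with a median of 20.5. The 13 windows of members not called had 3 to 39 with a median of 19, so the ranges overlapped. These matches are a description of the letters and not of binding, and members with several starts were read at 1 start only.

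Class 3 semaphorins differed in make-up more than in sum. The class summed to 187 and 176 CPM, a ratio of 0.941, or 1.205 with library totals. Of its 7 members SEMA3B and SEMA3C were higher, SEMA3E and SEMA3F lower, SEMA3A and SEMA3D not called and SEMA3G below the filter. The median log2 ratio of the 6 measured members was 0.00, and -0.59 over all 7.

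SEMA3C, whose protein can act through either neuropilin, had 33 and 2376 reads (1.90 and 87.3 CPM), 46.0-fold higher (95% interval 32.7 to 67.0). It made up 1.02% of the class 3 reads in the hESC library (exact binomial 95% interval 0.701 to 1.43%) and 49.7% in the NPC library (48.3 to 51.2%). These shares do not depend on how the libraries are scaled. SEMA3F, a ligand that signals mainly through NRP2, had 1111 and 279 reads (63.9 and 10.3 CPM) and was 6.23-fold lower (5.46 to 7.13). Its share of the class went from 34.2% (32.6 to 35.9%) to 5.84% (5.19 to 6.54%). SEMA3E, which binds PLXND1 without a neuropilin, had 539 and 226 reads (31.0 and 8.31 CPM) and was 3.73-fold lower (3.19 to 4.38).

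SEMA3A, the prototype axon repellent that acts through NRP1, had 1355 and 1413 reads (78.0 and 51.9 CPM), a ratio of 0.666 (0.618 to 0.718), and was not called. It held the largest class 3 share in the hESC library, 41.8% (40.1 to 43.5%), and 29.6% (28.3 to 30.9%) in the NPC library. SEMA3B had 16 and 170 reads (0.920 and 6.25 CPM), 6.79-fold higher (4.06 to 12.1), and lay close to the filter. SEMA3D had 127 and 300 reads (7.31 and 11.0 CPM), a ratio of 1.51 (1.22 to 1.87). SEMA3G had 64 and 14 reads (3.68 and 0.515 CPM), below the filter in both libraries, and was 7.15-fold lower (3.97 to 13.8) where filters of 1 CPM or none let it in.

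Neighbouring class 3 genes went different ways. In the RefSeq annotation of GRCh38.p14, SEMA3E, SEMA3A and SEMA3D follow each other with 0 other protein-coding genes between them, and SEMA3C is separated from SEMA3E by 3 genes, HGF, CACNA2D1 and PCLO. Their log2 ratios in that order from SEMA3C were 5.50, -1.90, -0.59 and 0.59. SEMA3F and SEMA3B, with 3 protein-coding genes between them, had log2 ratios of -2.64 and 2.72.

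**Figure D2:**
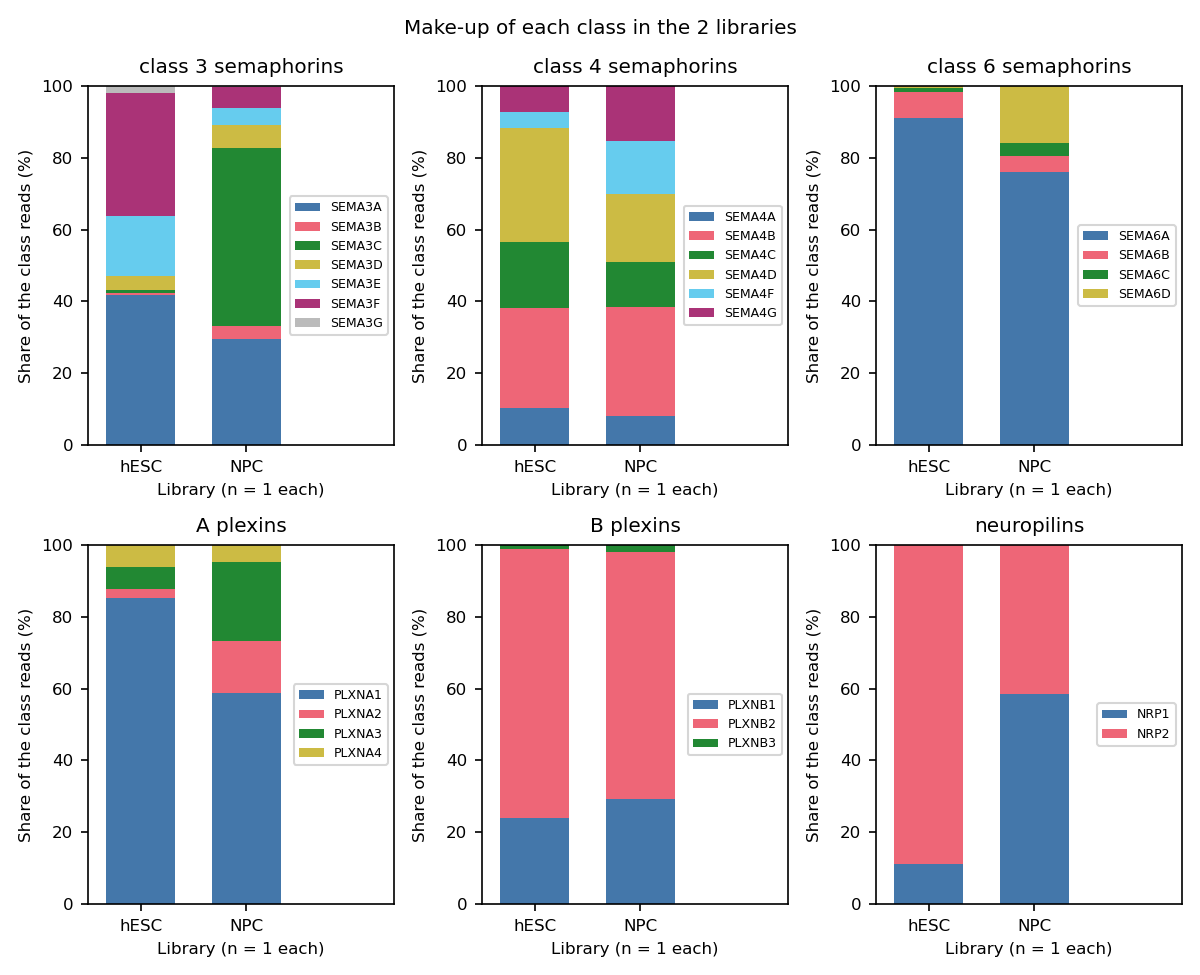
Share of the reads of a class (percent, vertical axis) taken by each member in the hESC and NPC library, for 6 classes with several members. SEMA3C goes from 1.02% to 49.7% of class 3 and NRP1 from 11.2% to 58.4% of the neuropilin reads, while the B plexin bars differ less.

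Class 4 semaphorins, membrane-bound ligands that mostly bind B plexins, had close summed levels in the 2 libraries under trimmed-mean scaling. Their sums were 133 and 131 CPM, a ratio of 0.985, or 1.26 with library totals, and 1 of the 6 members was called. SEMA4F had 102 and 529 reads (5.87 and 19.4 CPM) and was 3.31-fold higher (2.68 to 4.14). SEMA4D, the ligand of PLXNB1 known as CD100, had 732 and 670 reads (42.1 and 24.6 CPM), a ratio of 0.585 (0.526 to 0.650). SEMA4B had 644 and 1075 reads (37.0 and 39.5 CPM), a ratio of 1.07 (0.967 to 1.18), the member closest to no change under trimmed-mean scaling (SEMA4A with library totals, at a log2 ratio of -0.01). SEMA4C, a PLXNB2 ligand, had 426 and 451 reads (24.5 and 16.6 CPM) and SEMA4A 237 and 288 reads (13.6 and 10.6 CPM). SEMA4G had 166 and 543 reads (9.55 and 19.96 CPM), a ratio of 2.09 (1.754 to 2.50), and shares 1170 exon bases with MRPL43 on the opposite strand (769 and 1016 reads), so without a stated strand setting its reads cannot be told apart from those of MRPL43.

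Both class 5 genes, whose proteins carry thrombospondin repeats outside the cell, lay at the edge of the size rule. SEMA5A had 344 and 1075 reads (19.8 and 39.5 CPM), a ratio of 1.997 (1.77 to 2.26). SEMA5B had 382 and 1271 reads (21.98 and 46.7 CPM), a ratio of 2.13 (1.89 to 2.39). Neither was called. SEMA5A took 47.4% of the class reads (43.7 to 51.1%) in the hESC and 45.8% (43.8 to 47.9%) in the NPC library, so the balance of the pair differed by less than the counting error.

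Class 6 held the most abundant member and one of those with the largest ratio. SEMA6A, a transmembrane ligand of PLXNA2 and PLXNA4, had 17416 reads in the hESC (1002 CPM, rank 130 of all symbols) and 15860 in the NPC library (583 CPM, rank 156). Its ratio was 0.582 (0.569 to 0.595), and it was not called. SEMA6A alone took 67.7% of all semaphorin reads in the hESC library (67.1 to 68.3%) and 50.3% in the NPC library (49.7 to 50.8%). Its antisense partner SEMA6A-AS1 had 1228 and 1299 reads and shares 268 exon bases with it, and reads there cannot be assigned to a strand.

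SEMA6D, a ligand of PLXNA1, had 93 and 3314 reads (5.35 and 122 CPM), 22.8-fold higher (18.5 to 28.3). Its share of the class 6 reads was 0.486% (0.392 to 0.595%) and 15.9% (15.4 to 16.4%). SEMA6B had 1397 and 894 reads (80.4 and 32.9 CPM) and was 2.45-fold lower (2.25 to 2.66). The SEMA6B call was lost with library totals. SEMA6C had 239 and 754 reads (13.7 and 27.7 CPM), a ratio of 2.02 (1.74 to 2.34), and was not called.

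SEMA7A, which is anchored to the membrane by a lipid and binds PLXNC1 and beta 1 integrins, was 7.98-fold lower (6.03 to 10.7) in the NPC library. It had 306 and 60 reads (17.6 and 2.21 CPM). The gene of its plexin receptor went the other way. PLXNC1 had 100 and 1548 reads (5.75 and 56.9 CPM), 9.89-fold higher (8.08 to 12.2). PLXNC1 shares 177 exon bases with CEP83 on the opposite strand, which had 569 and 760 reads.

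**Figure D3:**
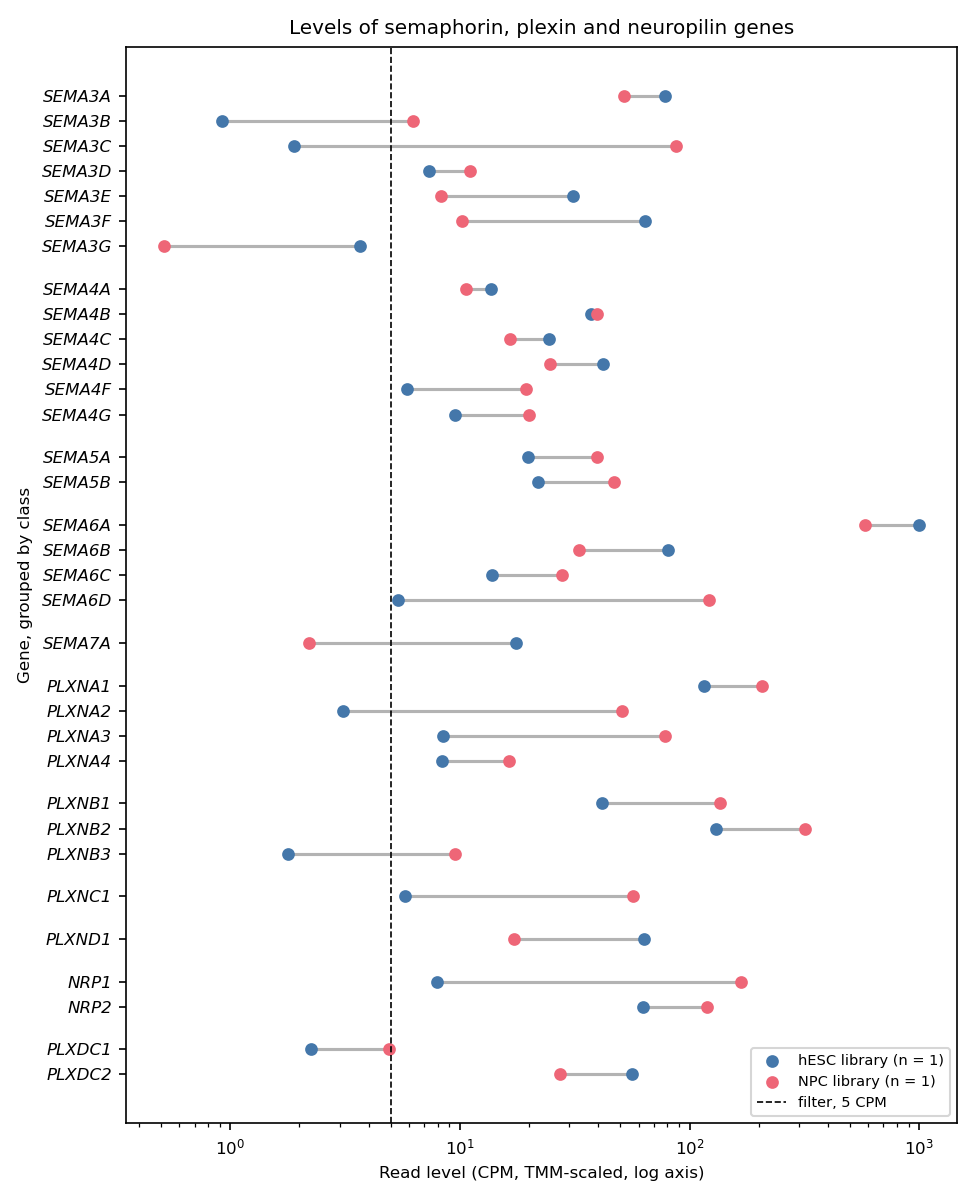
Level of each member in the hESC library (blue) and the NPC library (red) in CPM on a log axis, 1 library each, with the filter of 5 CPM dashed. SEMA6A has the highest level in both libraries (1002 and 583 CPM), and PLXNB2 has 130 and 320 CPM.

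A plexins, the partners of neuropilins in class 3 signalling and direct receptors of class 6, had a median log2 ratio of 2.09, and 2 of the 4 were called higher. PLXNA2 had 54 and 1378 reads (3.11 and 50.7 CPM), 16.3-fold higher (12.4 to 21.8). PLXNA3 had 146 and 2122 reads (8.40 and 78.0 CPM), 9.29-fold higher (7.85 to 11.1). PLXNA1, the most abundant A plexin in both libraries, had 2012 and 5643 reads (116 and 207 CPM), a ratio of 1.79 (1.70 to 1.89). Its share of the A plexin reads was 85.4% (83.9 to 86.8%) in the hESC and 58.9% (57.9 to 59.9%) in the NPC library. PLXNA4 had 145 and 443 reads (8.34 and 16.3 CPM), a ratio of 1.95 (1.61 to 2.37). PLXNA1 and PLXNA4 were not called.

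All 3 B plexins, receptors of class 4 ligands, were higher in the NPC library. PLXNB2 had 2268 and 8698 reads (130 and 320 CPM) and was 2.45-fold higher (2.34 to 2.57), but it was not called once the trend of the ratio with transcript length was removed (log2 ratio 0.98). PLXNB1 had 724 and 3698 reads (41.7 and 136 CPM), 3.26-fold higher (3.01 to 3.54). PLXNB3 had 31 and 260 reads (1.78 and 9.56 CPM), 5.36-fold higher (3.68 to 8.05), and shares 1432 exon bases with SRPK3 on the same strand (0 and 18 reads). PLXNB2 was the most abundant B plexin in both libraries and took 75.0% (73.4 to 76.6%) of its reads in the hESC and 68.7% (67.9 to 69.5%) in the NPC library. Class 4 ligand genes together were at 133 and 131 CPM in the same libraries.

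PLXND1, a receptor known from blood vessels, was the plexin with a lower level. It had 1106 and 469 reads (63.6 and 17.2 CPM), 3.69-fold lower (3.31 to 4.12). Its direct ligand SEMA3E was lower by a similar factor, with overlapping intervals. Of the 8 endothelium markers 2 were measured, TIE1, which was lower (140 and 2 reads), and TEK, which was not called (176 and 154 reads). The others were below the filter in both libraries, among them PECAM1 (4 and 10 reads) and CDH5 (13 and 9 reads). The part of endothelial cells in the PLXND1 result was not tested. PLXND1 took 16.8% of all plexin reads (15.9 to 17.7%) in the hESC and 1.93% (1.76 to 2.11%) in the NPC library.

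The order of the neuropilin genes differed between the libraries. NRP1, the SEMA3A receptor that also binds VEGFA, had 138 and 4550 reads (7.94 and 167 CPM), 21.1-fold higher (17.8 to 25.1). NRP2, the main SEMA3F receptor, had 1090 and 3243 reads (62.7 and 119 CPM), a ratio of 1.90 (1.77 to 2.04), and was not called. NRP1 made up 11.2% of the neuropilin reads (9.53 to 13.1%) in the hESC and 58.4% (57.3 to 59.5%) in the NPC library. NRP2 was the more abundant neuropilin transcript in the hESC library and NRP1 in the NPC library, also per kilobase (1.35 against 9.41 CPM per kb for NRP1 and NRP2 in hESC, 28.4 against 17.9 in NPC).

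PLXDC1 and PLXDC2 encode membrane proteins with a plexin-like domain that are not semaphorin receptors. PLXDC2 had 974 and 743 reads (56.0 and 27.3 CPM), a ratio of 0.487 (0.442 to 0.537), and was not called. PLXDC1 had 39 and 134 reads (2.24 and 4.93 CPM) and was below the filter.

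Per kilobase of the longest GENCODE 29 transcript, which allows genes to be set beside each other, SEMA6A led in both libraries with 146 and 84.8 CPM per kb. PLXNB2 followed with 20.4 and 50.1 CPM per kb. In the hESC library PLXNB2 and SEMA6B (20.2 CPM per kb) did not differ beyond their counting intervals, SEMA3F came next (16.8) and then PLXNA1 (12.8). The next 4 in that library, SEMA4B, SEMA3A, NRP2 and PLXND1, lay between 8.97 and 9.73 CPM per kb with overlapping intervals. In the NPC library NRP1 came next at 28.4 CPM per kb, followed by PLXNA1 (22.9), SEMA6D (19.97), PLXNB1 (18.6), NRP2 (17.9) and SEMA3C (16.9). PLXNB1 and NRP2 had overlapping counting intervals, as had NRP2 and SEMA3C. NRP1, SEMA6D and SEMA3C were at places 21, 24 and 29 of the 33 in the hESC library, at 1.35, 0.877 and 0.367 CPM per kb. Summed per kilobase, the 20 semaphorins went from 245 to 192 CPM per kb and the 11 plexins and neuropilins from 61.3 to 162 CPM per kb. The semaphorin ratio of these sums was 0.787 and became 1.01 with library totals in place of trimmed-mean scaling, so its direction rests on the scaling, while the receptor ratio was 2.65 and 3.39. It rests on SEMA6A as well, since the other 19 semaphorins summed to 98.9 and 108 CPM per kb, a ratio of 1.09.

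Other genes of the pathway were taken from lists of co-receptors, VEGF genes, intracellular effectors and processing proteases. Of 20 co-receptors and other partners 15 were measured. Of these 5 were higher and 4 lower (9 of 15 called, against 39.4% of all measured genes), and their median log2 ratio was -0.02. The higher genes with the farthest bounds encode cell adhesion molecules of axons: CHL1 had 2 and 1992 reads, a ratio of 636 (176 to 5259), NRCAM, a NRP2 partner, was 18.2-fold higher (15.7 to 21.2) and CNTN2 5.89-fold higher (5.11 to 6.83). CHL1 passed the filter through its NPC level alone, so a lower call was not open to it. L1CAM, a NRP1 partner, had 75.9 and 73.3 CPM. ERBB2, a receptor tyrosine kinase that associates with B plexins, was 4.12-fold lower (3.93 to 4.32), the syndecan gene SDC4 6.46-fold lower (5.42 to 7.75) and ITGA1 2.62-fold lower (2.20 to 3.14).

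The VEGF receptor genes FLT1, KDR and FLT4 were lower, while NRP1, which binds some of the same ligands, was higher. The VEGF list had 8 genes with rows, of which 6 were measured. Of these 1 was higher and 3 were lower (66.7% called, against 39.4% of all measured genes). VEGFC passed the filter through its NPC level alone and FLT1 through its hESC level alone, so the opposite call was not open to them. The median log2 ratio of the list was -1.01, or -0.05 over all 8, with FIGF (0 and 21 reads) and PGF (65 and 107 reads) added. FLT1 had 223 and 4.74 CPM, 47.1-fold lower (39.5 to 56.6). KDR had 149 and 18.4 CPM, 8.09-fold lower (7.35 to 8.92), and FLT4 26.6 and 7.43 CPM, 3.59-fold lower (3.03 to 4.25). VEGFC was 5.72-fold higher (3.55 to 9.73) at 6.25 CPM, and VEGFA had 48.7 and 64.1 CPM.

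Intracellular effectors relay the plexin signal to the cytoskeleton. Of 46 listed genes 43 were measured, with 6 higher, 5 lower, 32 not called and a median log2 ratio of 0.22. The share called was 25.6%, against the 39.4% over all measured genes. The higher genes with the farthest bounds were the p21-activated kinase gene PAK3, 6.89-fold (6.15 to 7.75), and the collapsin response mediator genes DPYSL5, 4.51-fold (4.18 to 4.86), and DPYSL4, 3.45-fold (3.14 to 3.79). The lower ones were SH3BP1, a GTPase-activating protein gene, 11.3-fold (9.47 to 13.7), RRAS2, a Ras family gene, 7.39-fold (6.90 to 7.93), and PAK1, 4.86-fold (4.63 to 5.11). PAK1 and PAK3 thus went opposite ways. SH3BP1 passed the filter through its hESC level alone, so a higher call was not open to it. The GTPase genes RAC1 (390 and 256 CPM) and RHOA (449 and 290 CPM) were not called. Of the 7 processing proteases 6 were measured and 1 was called (16.7%, against 39.4% of all measured genes). It was MMP14, 2.76-fold higher (2.49 to 3.05). FURIN, which cleaves class 3 semaphorins, had 36.7 and 32.5 CPM.

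**Figure D4:**
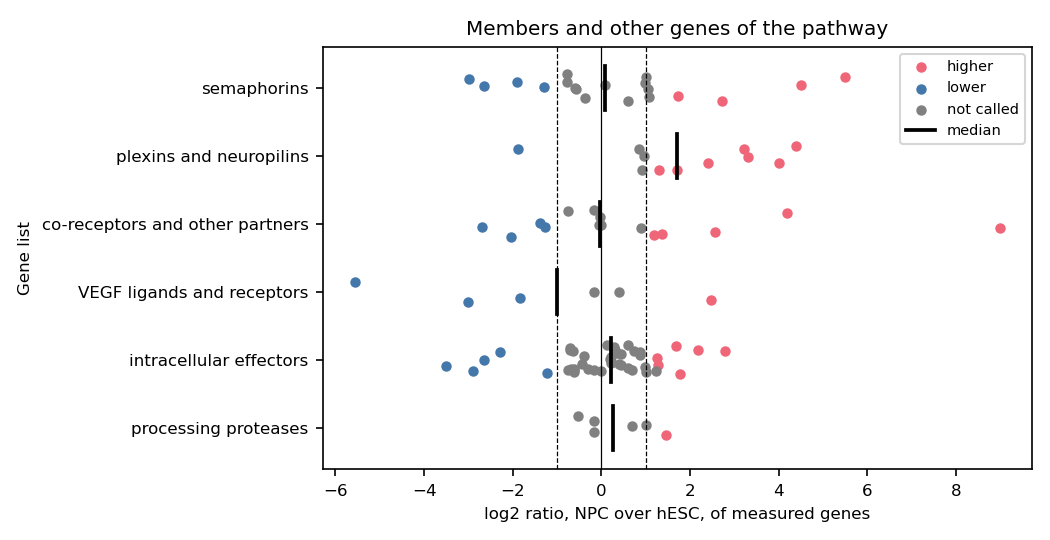
Log2 ratio, NPC over hESC, of each measured gene (points) in the semaphorin, receptor and 4 pathway lists, with the list median (bar) and dashed lines at 2-fold. The plexins and neuropilins have a median of 1.71, the semaphorins 0.09 and the VEGF list -1.01. With the genes below the filter added, the last 2 medians are -0.14 and -0.05.

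The size rule split genes with similar ratios. Just inside it were PLXNB2, whose interval bound on the side of no change was 2.34-fold, and SEMA6B, with 2.25-fold. Just outside were SEMA5B, PLXDC2, NRP2, SEMA5A, SEMA4G and SEMA6C, with such bounds between 1.74-fold and 1.89-fold. With library totals in place of trimmed-mean scaling every log2 ratio shifts up by 0.36, and 18 members were then higher and 4 lower, because SEMA4G, SEMA5A, SEMA5B, SEMA6C, PLXNA1, PLXNA4 and NRP2 passed and SEMA6B did not. Over all genes the same change moved the share of calls that were higher from 49.7% to 67.2%. The semaphorin class medians are near 0 and follow such shifts, with 0.36, 0.22 and 0.47 for classes 3, 4 and 6 with library totals and -0.35, -0.17 and -0.17 with the length trend removed, against 0.00, -0.14 and 0.11. The medians of the A and B plexins were positive in each setting tried. With the length trend removed they were 1.61 and 1.35, against 2.09 and 1.71. The median over all measured members was then 0.54, against 0.96.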

How the data were processed

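RNA was sequenced from 1 library of undifferentiated H9 hESC and 1 of H9-derived NPC. The authors deposited raw read counts per gene symbol, 1 column per library, as whole numbers. TopHat, edgeR and the build hg19 are named in the submitters' processing notes. The tool that counted reads, its strand setting and its annotation: not given in the sources used here. Each library was made from 1.3 µg of RNA, per the labels' protocols.

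Of 25737 rows per file, 286 symbols on several rows were reduced to the row with most reads, which left 24462 symbols. Each of the 33 members was on 1 row. Library sizes were scaled with edgeR 4.0.16 (TMM, R 4.3.3) to factors of 0.884 (hESC) and 1.13 (NPC). The filter of 5 CPM rested on 86.9 and 136 reads. Folds are ratios of CPM, with an exact Clopper-Pearson 95% interval on the NPC fraction of a gene's reads. Log2 ratios had 0.5 added to each count. Intervals cover counting error only, and they take reads as independent. PCR copies of a molecule would make them too narrow. A count of 0 allows up to 3 reads, which is 0.173 CPM (hESC) or 0.110 CPM (NPC).

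The reference annotation was of another build than hg19 and gave lengths (longest GENCODE 29 transcript, found for 94.8% of measured genes), exon overlaps and neighbours. Promoter windows are RefSeq sequences, and their length and motifs were chosen after the values were seen. Alternatives were library totals, DESeq2 1.42.0 and upper-quartile factors, filters of 1 and 20 CPM or none, a 4-fold bound, the point ratio, ribosomal and mitochondrial genes left out, summed rows, the length trend removed (lowess, statsmodels 0.14.6) and log2 of CPM + 1. The code was tested on simulated counts that held counting error only, so that test does not cover variation between cultures. The members and lists were chosen with earlier results of these data known. Every member is named, and of each pathway list the 3 higher and 3 lower called genes with the farthest bound. L1CAM, VEGFA, RAC1, RHOA and FURIN were chosen after their values were seen. Other steps used scipy 1.17.1 and pandas 2.3.3 in Python 3.11.15.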

Additional observations from a re-analysis of the deposited data

How the results depend on the processing

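No paired analysis was possible because each group had 1 library, and for the same reason no library could be left out. Over the 12 alternatives run on every member 0 called members changed sign, and 7 of the 16 called members (SEMA3C, SEMA3F, SEMA6D, PLXNA2, PLXNA3, PLXNC1 and NRP1) kept their call in each. The filters, the 4-fold bound and the point ratio leave each log2 ratio as it was, so no sign could change there. Summed rows moved members only through the library sizes, since each member was on 1 row. Called members lay beyond 2-fold, and the scalings shift all log2 ratios alike, by at most 0.36 (library totals). No sign of a called member could change there either. Log2 of CPM + 1 keeps the order of the 2 levels and the intervals that set the calls. Neither a sign nor a call could change there. The length trend moved the called members nearest to 0, PLXNB2 and SEMA6B, from log2 ratios of 1.29 and -1.29 to 0.98 and -1.38. With library totals 18 members were higher, among them 8 semaphorins, 4 A plexins, 2 class 4 and 2 class 6 genes, and 0 class 6 genes were lower. With a 4-fold bound 7 members were higher and 2 lower: 3 plexins were higher and 0 lower, 0 B plexins and 0 class 4 semaphorins were higher, 2 semaphorins were lower, and of these 1 was of class 3 and 0 of class 6. With a filter of 20 CPM 2 semaphorins were higher, 1 of class 3 and 0 of class 4. With the point ratio alone 7 semaphorins were higher, 2 of class 4 and 2 of class 6. With the length trend removed 2 class 6 genes were lower. These counts follow from the looser or stricter rule or the common shift; the cause of the length trend was not tested. The ratio of the summed semaphorin levels per kilobase, 0.787, was 1.01 with library totals and 1.09 with SEMA6A left out, a setting chosen after seeing the data. Depth limits SEMA3G and PLXDC1, which were below 5 CPM in both libraries.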
